A study of Rattus norvegicus with 4 samples.

Results

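Gadd45a, Cdkn1a, Mdm2, Btg1, Btg2 and Ccng1, 6 growth arrest genes of the p53 type, were followed on 4 RG-U34A rat arrays (Affymetrix). Members were chosen as every probe set, a group of short probes for a transcript, whose only gene symbol in the platform annotation was one of these genes. They came to 13 of the 8799 probe sets on the array: 4 for Gadd45a, 4 for Mdm2, 2 for Btg1, 2 for Cdkn1a and 1 for Ccng1, so that 5 of the 6 genes were covered, out of 4736 genes named on the array. The annotation gave Btg2 no probe set. For this gene, 1 probe set that the study's supplementary list names as Btg2 was read beside the 13 and is not counted with them.

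The RNA came from Rat1 fibroblasts, an immortalized rat line, stably infected with an empty retrovirus (Rat1-control) or with a retrovirus for Omomer (Rat1-Omomer). Omomer joins Omomyc, a dominant interfering form of the Myc dimerization domain, to a part of the estrogen receptor that needs 4-OHT (hydroxytamoxifen), so that it acts only when 4-OHT is given. Both lines were starved for 48 h in 0.1% serum and harvested either then (0 min) or 90 min into serum stimulation with 10% serum. Cells of both lines received 4-OHT, by the sample labels for all of the starvation and by the methods for its last hours only. In each line, a label field of 1 sample names the other construct, and the sample titles were followed. Each condition is a single array. No p was computed, and the precision of a fold is limited by having 1 array on each side.

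p53 is a transcription factor that damaged or stressed cells use to halt division. Among its best known targets are Cdkn1a, whose product p21 inhibits cyclin-dependent kinases, Gadd45a, whose product binds Cdk1 and PCNA and activates stress kinase signaling, and Mdm2, the ubiquitin ligase that removes p53 itself. Ccng1 encodes cyclin G1, a p53 target that works with the phosphatase PP2A. Btg1 and Btg2 encode related antiproliferative proteins that bind the CCR4-NOT deadenylase, and Btg2 is both a p53 target and an immediate early gene. Several of these genes are also transcribed in starved cells without DNA damage, through FoxO and other factors, and Myc is known to repress Cdkn1a and Gadd45a.

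Gadd45a and Ccng1 were at least 2-fold lower in Rat1-control cells after serum. Btg2 was too, but its probe set was found in the study's list of genes lower there. Its fall was therefore fixed by that choice. The promoters of these 3 genes are shown here. Each is the 250 bases before the transcription start given in the RefSeq table of build GRCr8, on the minus strand and written in the direction of transcription: Gadd45a at chr4:97486800-97487049, Ccng1 at chr10:25684877-25685126 and Btg2 at chr13:48087691-48087940. Capitals mark every match, on either strand, to the motifs searched.
Gadd45a: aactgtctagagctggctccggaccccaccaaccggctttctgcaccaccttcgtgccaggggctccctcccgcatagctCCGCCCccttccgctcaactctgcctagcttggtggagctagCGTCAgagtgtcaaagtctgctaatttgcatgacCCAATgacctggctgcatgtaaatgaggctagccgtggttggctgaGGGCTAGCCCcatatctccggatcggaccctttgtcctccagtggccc
Ccng1: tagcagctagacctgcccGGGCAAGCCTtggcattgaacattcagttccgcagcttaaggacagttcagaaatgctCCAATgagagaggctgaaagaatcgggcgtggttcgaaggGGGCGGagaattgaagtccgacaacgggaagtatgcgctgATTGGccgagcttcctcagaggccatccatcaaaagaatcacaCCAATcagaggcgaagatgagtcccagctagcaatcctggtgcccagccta
Btg2: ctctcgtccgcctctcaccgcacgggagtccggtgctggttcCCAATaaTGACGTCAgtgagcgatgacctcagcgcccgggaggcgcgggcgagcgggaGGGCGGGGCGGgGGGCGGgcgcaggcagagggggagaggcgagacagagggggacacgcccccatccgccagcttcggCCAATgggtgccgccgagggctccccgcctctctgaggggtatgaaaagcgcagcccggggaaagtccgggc

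The motifs were the E-box that Myc and Max bind, spelled CACGTG, and the AP-1 site, spelled TGACTCA. Also searched were TGACG, a core of the cyclic AMP response element, and GGGCGG, the GC box. The CCAAT box was searched as spelled, the TATA box as TATAAA and the forkhead core as TTGTTT. The p53 half-site and the SRF CArG box were searched by their usual consensus. No E-box of this spelling stood in the 250 bases of any of the 6 genes, and 5.59% of the 33469 promoters in the table hold one. A p53 half-site was found before Gadd45a (48 to 39 bases before the start), before Ccng1 (232 to 223 bases before) and before Cdkn1a (201 to 192 bases before), against 6.64% of all promoters. TGACG, which 18.2% of promoters hold, stood before Btg2 on both strands, at 201 to 197 and, overlapping, 198 to 194 bases before the start, and once each before Gadd45a, Mdm2 and Cdkn1a. CCAAT was matched 3 times before Ccng1, 2 times before Btg2 and once each before Gadd45a and Mdm2, against 34% of promoters with at least 1. The GC box, in 30.5% of promoters, was in the window of each gene but Cdkn1a. The windows of Mdm2 and Cdkn1a stand before a start within the gene. By the RefSeq span of each gene, the Mdm2 window lies wholly inside it and the Cdkn1a window partly. These are matches of letters and not measured sites.

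The values are MAS 4 average differences, in which the brightness of mismatch probes is subtracted from that of matching probes and averaged over a probe set, so that they can be negative. The SD of the noise was 524, estimated from the negative values. For folds, anything under a floor of 1048, or 2 noise SDs, was raised to the floor, and no fold is given where both arrays were under it. As in the methods, 3-fold was the threshold. Of the 13 probe sets, 10 lay above the floor on all 4 arrays and gave a fold in every comparison. The other 3, both of Cdkn1a and 1 of Mdm2, lay under it on every array.

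Fibroblast markers were present: of 28 probe sets for 10 fibroblast genes, 23 were above the floor on all 4 arrays, with Col1a1 at 56816 or more by 1 of its probe sets. None of 6 epithelial and none of 2 endothelial probe sets reached the floor on any array, and 1 of 3 for the leukocyte gene Ptprc stood at it, between 1040 and 1097. The Rat1-Omomer 90 min array stands apart. When it was set against Rat1-control at 0 min, probe sets of the same gene differed in log2 fold with an SD of 0.74 (438 genes), while this SD was 0.32 for Rat1-control at 90 min (492 genes) and 0.30 for Rat1-Omomer at 0 min (547 genes). Its own noise would put the floor at 1228. Many of its low values belong to 1744 probe sets made from expressed sequence tags, with IDs beginning rc_AA79, rc_AA80, rc_AA85, rc_AA87 or rc_AA89 (the EST series), and none of the 13 members is among them.

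**Figure D1:**
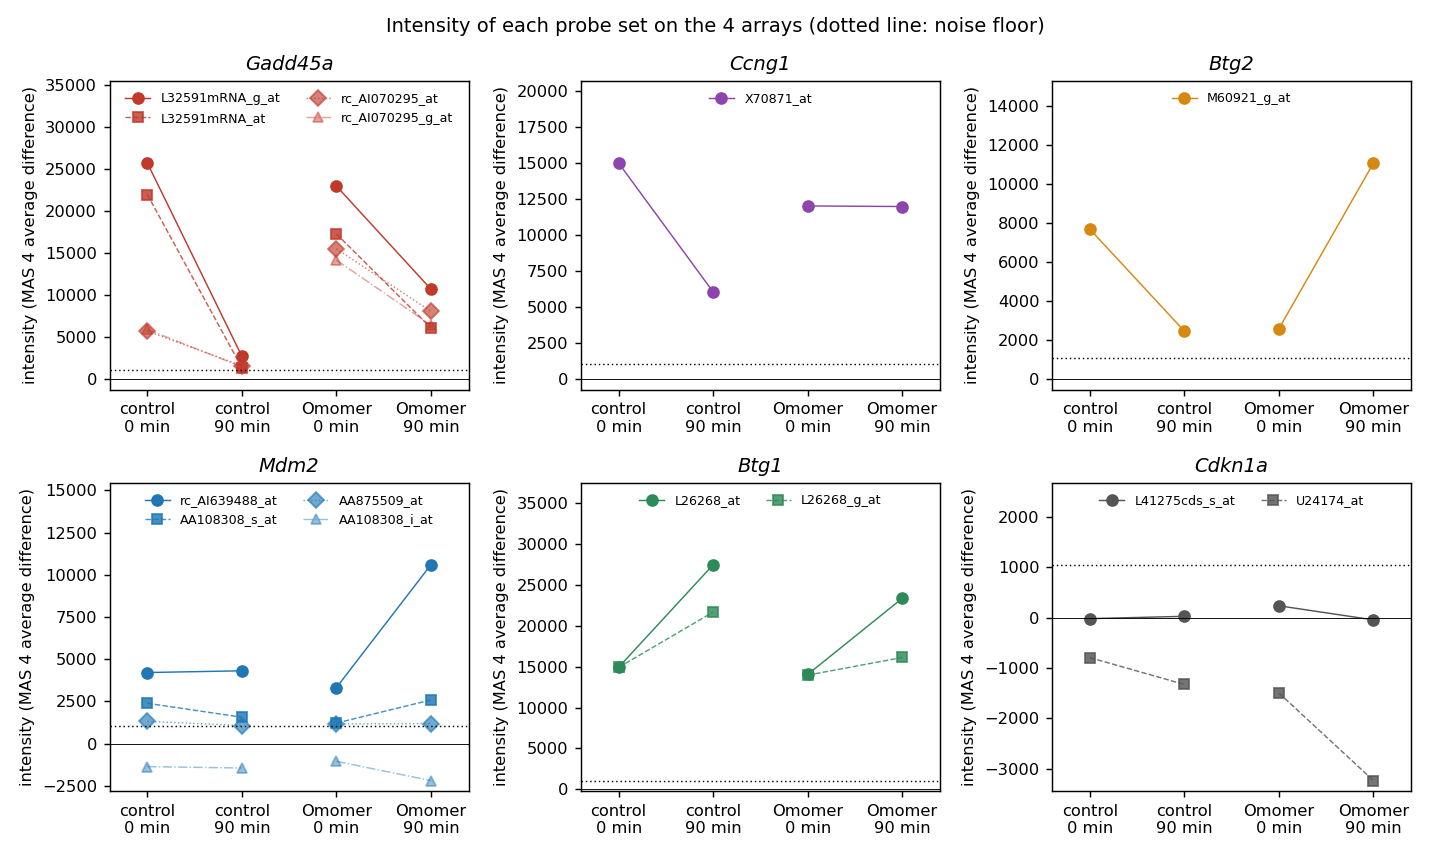
Intensity (MAS 4 average difference, linear axis, a scale of its own for each gene) of every probe set of the 6 genes on the 4 arrays, 1 array per condition; lines join the 0 and 90 min arrays of a cell line and the dotted line is the noise floor of 1048. All 4 Gadd45a probe sets are at 2696 or less in Rat1-control at 90 min and at 6070 or more in Rat1-Omomer at 90 min, and both Cdkn1a probe sets lie under the floor on every array.

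Gadd45a differed most among the members. Its brightest probe set, L32591mRNA_g_at, went from an intensity of 25674 at 0 min to 2696 at 90 min in Rat1-control, and from 22940 to 10677 in Rat1-Omomer. The second probe set of the same sequence, L32591mRNA_at, went from 21925 to 1326 and from 17252 to 6070. In both, Rat1-control after serum had by far the lowest value, and Rat1-Omomer after serum lay between it and the starved cells.

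A pair made from an expressed sequence tag read Gadd45a as well. By rc_AI070295_at the intensity was 5670 at 0 min and 1571 at 90 min in Rat1-control, and 15479 and 8042 in Rat1-Omomer. By rc_AI070295_g_at it was 5888 and 1435, and 14136 and 6396. Here too Rat1-control after serum was the lowest of the 4 arrays, but starved Rat1-Omomer was the highest.

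In Rat1-control, Gadd45a was lower after 90 min of serum by each probe set: 9.52-fold and 16.5-fold by the L32591 pair, and 3.61-fold and 4.10-fold by the tag pair. The mean log2 fold was -2.80 with an SD of 1.04 between the 4 probe sets, which share arrays and are no replicates of the culture. For L32591mRNA_at, whose 1326 is near the floor, moving both values by 1 noise SD in opposite directions takes the fold from 11.6 to 28. Of the 10 members with a fold, 4 passed the threshold as lower, all of Gadd45a, where 1.81% of the 3985 probe sets with a fold did. None passed it as higher, where 1.93% did.

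Rat1-Omomer also had less Gadd45a at 90 min than at 0 min, by smaller folds: 2.15 and 2.84 for the L32591 pair and 1.92 and 2.21 for the tag pair, with a mean log2 fold of -1.17 and an SD of 0.24. None of the 10 members passed 3-fold as lower here, where 9.65% of 4209 probe sets did (3.70% outside the EST series). The serum folds of the lines rest on separate pairs of arrays. Their difference for Gadd45a, Rat1-Omomer minus Rat1-control on the log2 scale, was 2.15 and 2.54 for the L32591 pair and 0.91 and 0.89 for the tag pair, with a median of 0.11 over 3766 probe sets. A difference at least as high as that of L32591mRNA_at was found for 0.717% of these, and one as high as that of rc_AI070295_g_at for 15.0%.

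With both lines at 90 min, Gadd45a was higher in Rat1-Omomer by 3.96-fold and 4.58-fold for the L32591 pair and by 5.12-fold and 4.46-fold for the tag pair. Here the 4 probe sets lay close together, with a mean log2 difference of 2.17 and an SD of 0.15. They were the only members past 3-fold, 4 of 10, where 2.22% of 4048 probe sets were called higher. As lower, no member was called, where 8.57% were (3.30% outside the EST series). The serum fold of Rat1-control uses the same Rat1-control 90 min array, so that a low value there moves both. The study's real-time PCR at 90 min reads otherwise. It reported Gadd45a, among other targets repressed by Myc, as not affected or further repressed with Omomyc. That measurement set Omomer cells with 4-OHT against those without it, relative to time 0, and not the lines against each other.

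In starved cells the Gadd45a probe sets contradict each other. In Rat1-Omomer relative to Rat1-control, the L32591 pair was 1.12-fold and 1.27-fold lower and the tag pair 2.73-fold and 2.40-fold higher, with an SD of 0.94 between the log2 folds. The direction at 0 min is therefore not settled by these arrays. The conflict carries into the comparison the methods use, Rat1-Omomer at 90 min against Rat1-control at 0 min, in which L32591mRNA_at was 3.61-fold and L32591mRNA_g_at 2.40-fold lower, and the tag pair 1.42-fold and 1.09-fold higher. L32591mRNA_at was the only member past 3-fold in that comparison, 1 of 10, where 9.95% of 4220 probe sets were called lower (4.36% outside the EST series) and 2.80% higher.

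Ccng1 was measured by X70871_at alone. It went from 14987 at 0 min to 6040 at 90 min in Rat1-control, and from 12010 to 11969 in Rat1-Omomer. As for Gadd45a, Rat1-control after serum was the lowest of the 4 arrays, while the other 3 lay close together. Ccng1 was thus 2.48-fold lower after serum in Rat1-control, or between 2.20-fold and 2.81-fold with the values moved by 1 noise SD, and stayed level in Rat1-Omomer. Between the lines it was 1.98-fold higher in Rat1-Omomer after serum and 1.25-fold lower at the start. None of its folds reached 3-fold.

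Btg2, by M60921_g_at, went from 7677 at 0 min to 2447 at 90 min in Rat1-control, and from 2575 to 11071 in Rat1-Omomer. The lines moved in opposite directions, 3.14-fold lower after serum in Rat1-control and 4.30-fold higher in Rat1-Omomer. Between the lines, Rat1-Omomer was 2.98-fold lower at the start and 4.52-fold higher after serum. Another probe set with the same source record in its ID, M60921_at, to which the annotation gave no gene name, went from 16994 to 6132 and from 4418 to 26420, in the same directions. Its folds were 2.77 lower and 5.98 higher after serum, and 3.85 lower and 4.31 higher between the lines. M60921_g_at was found in a sheet of the study's supplementary list for genes lower at 90 min in the absence of Omomyc, drawn up from these arrays. By the methods, such genes were chosen by the fold of Rat1-control at 90 min over Rat1-control at 0 min. Both values, and every fold that uses either array, are therefore a description of how the probe set was chosen. This includes the 2.98-fold lower start of Rat1-Omomer. M60921_at shares the source record and the arrays, so its folds do not stand apart from that choice. Only the rise of Rat1-Omomer from its own start uses neither array.

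**Figure D2:**
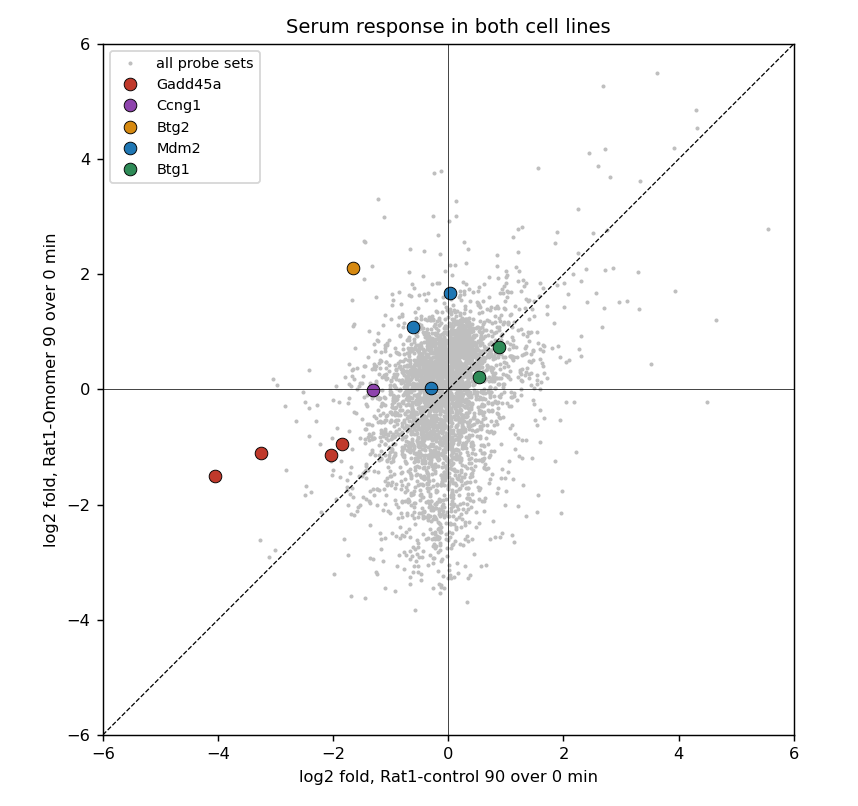
Log2 fold of 90 over 0 min of serum in Rat1-control (horizontal axis) and Rat1-Omomer (vertical axis), 1 array per condition; grey points are the 3766 probe sets with a fold in both lines, coloured points are the probe sets of the growth arrest genes, and the dashed line marks equal folds. Gadd45a and Ccng1 lie left of 0 and above the dashed line, as does Btg2. Btg2 was found by its fall in Rat1-control. Btg1 lies close to the line.

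Mdm2 showed another pattern. Its brightest probe set, rc_AI639488_at, had 4214 at 0 min and 4316 at 90 min in Rat1-control, and 3321 and 10598 in Rat1-Omomer. The single high value is that of Rat1-Omomer after serum, 3.19-fold above its own start and 2.46-fold above Rat1-control at the same time. In Rat1-control the arrays at 0 and 90 min differed by 1.02-fold. It was the only member past 3-fold as higher in Rat1-Omomer relative to its own start, 1 of 10, where 2.90% of 4209 probe sets were.

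The dimmer Mdm2 probe sets did not all repeat this. AA108308_s_at had 2393 and 1566 in Rat1-control and 1220 and 2590 in Rat1-Omomer, so that it was 1.53-fold lower and 2.12-fold higher after serum. AA875509_at had 1320 and 1075, and 1171 and 1189, all close to the floor, with folds of up to 1.23. AA108308_i_at was negative on every array, between -2189 and -1044. Over the 3 with folds, the mean log2 serum fold of Rat1-Omomer was 0.93 with an SD of 0.84. The 3-fold call of Mdm2 thus rests on 1 bright probe set, on the array with the widest spread between probe sets.

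Btg1 was the only member gene higher after serum in both lines by every probe set. L26268_at went from 14929 to 27478 in Rat1-control and from 14042 to 23360 in Rat1-Omomer. L26268_g_at went from 14912 to 21684 and from 13964 to 16123. Both probe sets show nearly equal levels in the starved lines and higher levels in both after serum.

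The serum folds of Btg1 were 1.84 and 1.45 in Rat1-control, and 1.66 and 1.15 in Rat1-Omomer. After serum, Btg1 was 1.18-fold and 1.34-fold lower in Rat1-Omomer, a mean log2 difference of -0.33 with an SD of 0.14, which is smaller than the SD of 0.72 within genes in that comparison. In starved cells the lines differed by 1.06-fold and 1.07-fold.

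Cdkn1a could not be measured. L41275cds_s_at had -21 and 25 in Rat1-control, and 234 and -46 in Rat1-Omomer. U24174_at had -795 and -1328, and -1497 and -3236. All these values lay under the floor, where matching probes were not clearly brighter than mismatch probes, and no fold or direction can be given for p21.

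**Figure D3:**
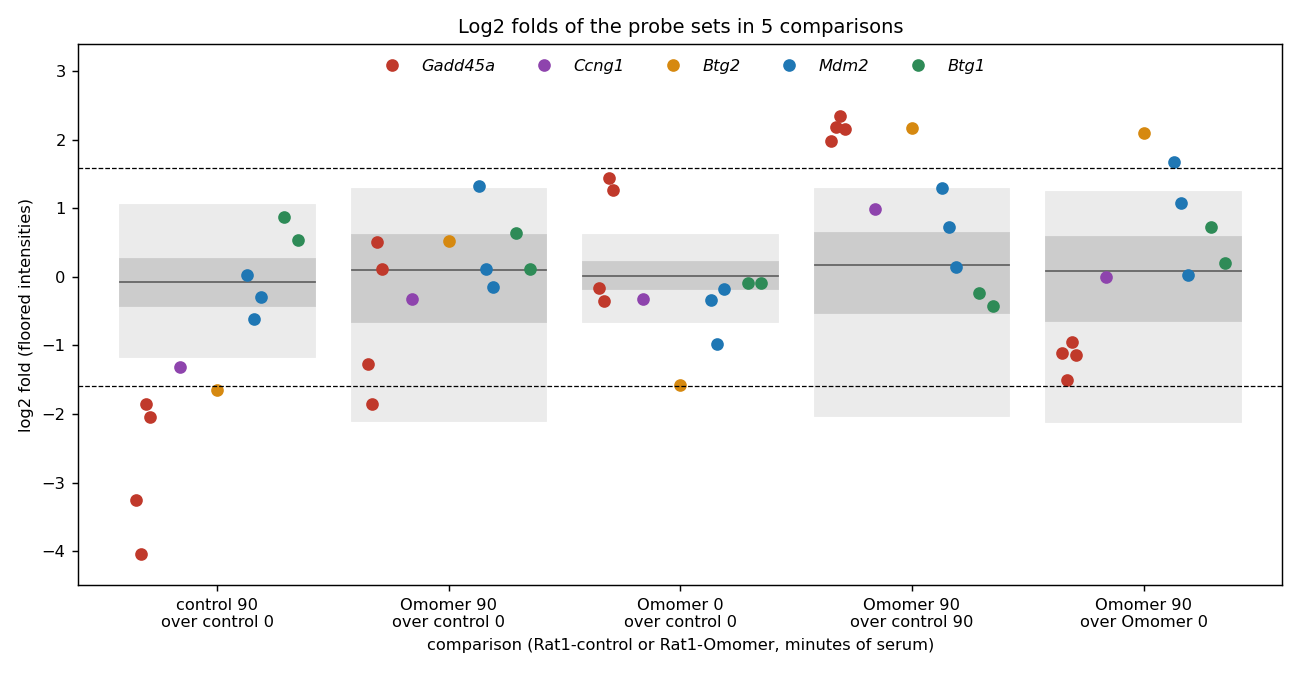
Log2 folds of the probe sets of Gadd45a, Ccng1, Mdm2, Btg1 and Btg2 (Cdkn1a has none) in 5 comparisons, 1 array per condition; dark and light grey bands run from the lower to the upper quartile and from the 5th to the 95th percentile of all probe sets, the grey line is their median and dashed lines mark 3-fold. Gadd45a lies below the lower dashed line for Rat1-control 90 over 0 min and above the upper one for Rat1-Omomer over Rat1-control at 90 min.

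Over the 10 members with folds, the median log2 serum fold was -0.96 in Rat1-control, with 7 lower and 3 higher, and the median of all probe sets was -0.07. In Rat1-Omomer relative to its own start the members' median was 0.01, with 5 lower and 5 higher, and that of all probe sets 0.09. Between the lines after serum it was 1.14, with 8 higher and 2, both of Btg1, lower, and that of all probe sets was 0.18. Between the starved lines it was -0.17, with 8 lower in Rat1-Omomer, and that of all was 0.01. None passed 3-fold there, where 0.503% of 3977 probe sets were called lower and 0.251% higher. Because 4 of the 10 read Gadd45a and 3 read Mdm2, the medians weigh these genes most.

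At 2-fold, a less strict threshold, 5 of 10 members were lower after serum in Rat1-control, Gadd45a with Ccng1, where 7.23% of all probe sets were lower and 5.45% higher. In Rat1-Omomer relative to its own start, 3 were lower, all of Gadd45a, and 2 higher, both of Mdm2, where 17.5% and 9.19% were. After serum, 5 were higher in Rat1-Omomer than in Rat1-control, where 10.1% were, and none lower, where 15.7% were. In starved cells 2 were higher, the tag pair of Gadd45a, and none lower, where 1.41% and 1.71% were. In the methods' comparison 1 was higher and 2 lower, where 10.1% and 18.2% were. The difference between the serum folds of the lines reached 3-fold in favour of Rat1-Omomer for 4 of 10 members, 2 of Gadd45a and 2 of Mdm2, where 3.64% of 3766 probe sets did, and in favour of Rat1-control for none, where 9.80% did.

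Myc was read for reference. Y00396mRNA_g_at went from 1172 to 4980 in Rat1-control and from 2307 to 7233 in Rat1-Omomer. The second Myc probe set was above the floor only in Rat1-control at 90 min, with 1171.

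Few other genes of the p53 pathway could be read. Of 12 relatives of the members, 4 were on the array under a single symbol, and Btg3, another antiproliferative protein of the Btg family, was the only one above the floor. By its probe sets it was 1.22-fold and 1.64-fold higher after serum in Rat1-control, and in Rat1-Omomer it differed by up to 1.07-fold. Of 35 genes for p53 regulators and other p53 targets, 6 were on the array, and 3 of their 10 probe sets gave folds. Past 3-fold was 1 of these 3: Gpx1, a glutathione peroxidase, was 4.45-fold higher after serum in Rat1-Omomer by X07365_s_at, and 1.57-fold higher by X12367cds_s_at, where 2.90% of all 4209 probe sets were called higher. By X07365_s_at, Gpx1 had 6027 and 6517 in Rat1-control, and 2285 and 10161 in Rat1-Omomer. The starved Rat1-Omomer array is the low one by this probe set, 2.64-fold below starved Rat1-control, and Rat1-Omomer after serum was 1.69-fold above starved Rat1-control. X12367cds_s_at did not repeat the low start, with 4444 in starved Rat1-control and 4436 in starved Rat1-Omomer.

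Partners and targets of the member proteins gave 18 probe sets with a serum fold in Rat1-control, none past 3-fold in either direction, with a median log2 fold of -0.04. Cdk1, the mitotic kinase that Gadd45a binds, went from 5472 to 1930 in Rat1-control and from 6042 to 6522 in Rat1-Omomer. It was 2.84-fold lower after serum in the first and 1.08-fold higher in the second, and 3.38-fold higher in Rat1-Omomer between the lines after serum. Cdk1 was the only one of 18 past 3-fold as higher between the lines, and 3 were past it as lower, where 2.22% and 8.57% of all 4048 probe sets were (3.30% lower outside the EST series). These 3 were Ppp2r5a, a PP2A subunit, 5.09-fold lower by a probe set of the EST series, and cyclin D1 (Ccnd1), 4.18-fold lower by D14014_g_at and at least 3.80-fold lower by X75207_s_at. Other Ccnd1 probe sets differed, at 1.06-fold higher by D14014_at and 1.75-fold higher by rc_AA957218_at. PCNA, the replication clamp that Gadd45a and p21 bind, was 1.96-fold and 1.28-fold higher in Rat1-Omomer after serum. It was already 1.68-fold and 1.37-fold higher there in starved cells, by the same probe sets in the same order.

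Quiescence and FoxO genes gave 23 probe sets with serum folds in Rat1-control, with a median log2 fold of -0.50, while that of all probe sets was -0.07. Past 3-fold were 2, both lower and both of Txnip, a thioredoxin-binding protein, at least 9.62-fold and at least 4.10-fold. Of all 3985 probe sets, 1.81% were called lower. Txnip was also lower after serum in Rat1-Omomer, by 6.10-fold and 2.37-fold. Its values there at 90 min, 1269 and 1263, were near the floor of 1048, so these folds are imprecise. Klf4, a transcription factor of growth arrest, was 4.04-fold and at least 7.66-fold higher in Rat1-Omomer than in Rat1-control after serum, and 3.12-fold and 3.21-fold above its own start. In each of these comparisons its 2 probe sets were the only ones of 23 called higher. Of all probe sets, 2.22% of 4048 and 2.90% of 4209 were called higher.

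Among genes of this list that were lower in Rat1-Omomer, Gas6, a ligand of receptor tyrosine kinases, was at least 3.52-fold below Rat1-control after serum by a probe set of the EST series, and 1.65-fold higher by D42148_at. The former was the only 1 of 23 called lower between the lines, where 8.57% of all 4048 probe sets were (3.30% outside the EST series). Cebpd, a C/EBP transcription factor, was at least 3.14-fold lower in Rat1-Omomer at 90 min relative to starved Rat1-control by M65149_at, and 2.90-fold lower after serum in Rat1-control. By the brighter rc_AA946292_at, Cebpd was only 2.08-fold and 1.19-fold lower in these comparisons. By rc_AI045030_s_at it was at least 1.75-fold lower in both. In the first comparison 4 of 23 probe sets of the list were called lower, where 9.95% of all 4220 were (4.36% outside the EST series). These bounds would be smaller at a floor of 1228. Between the lines after serum the median log2 fold of the list was 0.43, and that of all probe sets 0.18.

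**Figure D4:**
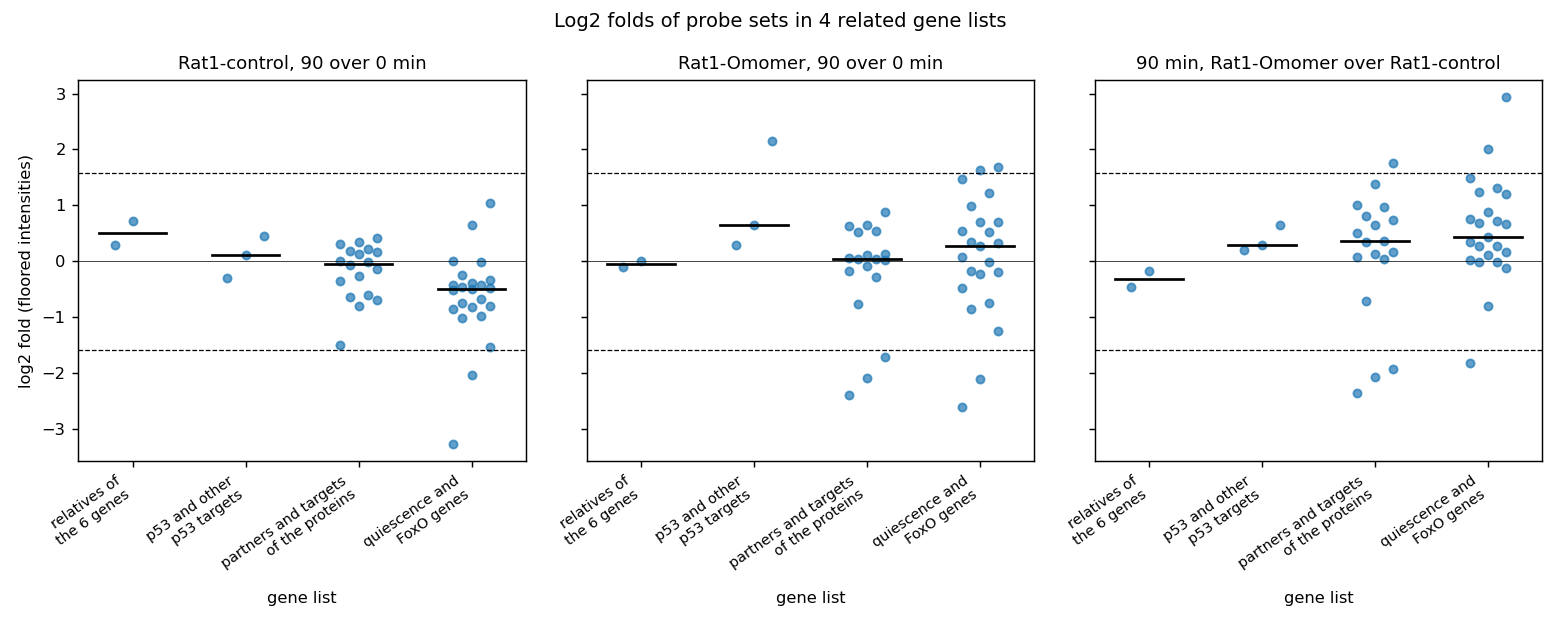
Log2 folds of the probe sets of 4 related gene lists in Rat1-control and Rat1-Omomer (90 over 0 min) and between the lines at 90 min, 1 array per condition; points are probe sets, bars are list medians and dashed lines mark 3-fold. In Rat1-control the points below the lower dashed line are the 2 Txnip probe sets.

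The genes nearest in pattern to each member were searched among 2058 probe sets, by the distance between log2 values centred on their mean over the 4 arrays. With 4 arrays many genes lie close, and the distances are a description. Nearest to Gadd45a (L32591mRNA_g_at) were Psma7, a proteasome subunit, at a distance of 0.65, Pnrc1, a nuclear receptor coactivator, at 0.74, Hbp1, a transcriptional repressor, at 0.81, Tcp11l2 at 0.91 and Gstt2, a glutathione transferase, at 0.95. The values of Psma7, Hbp1 and Tcp11l2 in Rat1-control at 90 min were under the floor, and a second Psma7 probe set, D30804_g_at, had log2 serum folds of -0.07 in Rat1-control and 0.29 in Rat1-Omomer, unlike Gadd45a. Hbp1 went from 5615 to 817 in Rat1-control and from 4660 to 3702 in Rat1-Omomer. Nearest to Ccng1 were Igf2r, the IGF2 receptor, at 0.07 and Bad, a proapoptotic Bcl2 relative, at 0.08, followed by Pfkfb1, Dock9 and Cd48 at up to 0.23. Igf2r went from 15512 to 6501 and from 12585 to 13143, with Rat1-control after serum as the lowest array.

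Nearest to Mdm2 were Insig1, a regulator of sterol synthesis, and Prkaca, the catalytic subunit of protein kinase A, both at 0.17, then Cebpg, Nup50 and Dmbt1 at up to 0.22. Insig1 went from 12051 to 12815 in Rat1-control and from 9913 to 27405 in Rat1-Omomer, with the same single high array as Mdm2. Nearest to Btg1 were Hspb1, a small heat shock protein, at 0.14 and Lmna, lamin A, at 0.20, then Nrdc, Kif13a and Col5a1 at up to 0.22. Hspb1 went from 14028 to 28548 and from 14138 to 24971.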

How the data were processed

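RNA of Rat1-control and Rat1-Omomer cells at 0 and 90 min of serum was hybridized by the authors to RG-U34A arrays, 1 per condition. The deposited values are intensities, the average differences of MAS 4 at default settings, on a linear scale and scaled between arrays by the authors; the scaling target is not given in the sources used here. Samples were grouped by title. Probe sets were named from the platform annotation: of 8740 without the 59 controls, 7006 had 1 symbol, 308 several and 1426 none. Folds were ratios of floored values (floor 1048, from the negative values), not the MAS 4 Fold Change, in 5 comparisons. Spread was the SD of log2 folds between probe sets of 1 gene.

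Named were all probe sets of the 6 genes, Myc, genes of 4 lists past 3-fold at 90 min and the 5 genes nearest in pattern; cell type markers, Btg3, PCNA and M60921_at were added with values seen. The members and lists were chosen with earlier results of these data known. Promoters came from RefSeq (GRCr8), matched by symbol for all 6 genes. The fold rule was tested on simulated data. Python 3.11.15, numpy 2.4.6, pandas 2.3.3, scipy 1.17.1 and matplotlib 3.10.9 were used. Alternatives tried were other floors, median scaling, quantile normalization, the difference form of the fold, a filter, gene means, a 2-fold threshold and removal of the EST series, which was chosen after seeing the data.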

Additional observations from a re-analysis of the deposited data

Results flagged for a closer look

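Probe sets of 2 genes went in opposite directions after serum in the 2 lines, each by more than the SD within genes of its comparison (0.32 in Rat1-control, 0.71 in Rat1-Omomer). For Btg2 (M60921_g_at) the log2 serum fold was -1.65 in Rat1-control but 2.10 in Rat1-Omomer, a difference of 3.75. This probe set was found in the study's list of genes lower in Rat1-control at 90 min, so that its direction there was fixed by the choice. For Mdm2 (AA108308_s_at) it was -0.61 but 1.09, a difference of 1.70, with values that lie within a few noise SDs of the floor. Moving its values by 1 noise SD takes the fold by which it was lower in Rat1-control from 2.80 to 0.89, which includes no change, and the brightest Mdm2 probe set, rc_AI639488_at, had a log2 fold of 0.03 there. With 1 array per condition, neither difference was tested.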

How the results depend on the processing

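No paired analysis was possible because each condition has 1 array and no replicate numbers. For the same reason no replicate could be left out. Each of the 5 comparisons gave a count of member probe sets at least 3-fold higher and one at least 3-fold lower. Most of these kept within 1.5 times under the alternatives, where a count that stayed at 0 was scored as kept. Both scalings and the floor of each array alone left the counts unchanged. The floor of 1 noise SD, the difference form, the filter and the removal of the EST series could not change a count. Every member with a fold lay above the floor on all arrays, where the first 3 of these give the same folds. No member is in the EST series. With a floor of 4 noise SDs, 2 in place of 4 Gadd45a probe sets were at least 3-fold lower after serum in Rat1-control cells, since 3 of the 4 values at 90 min then lie under the floor. Counting genes by the mean of their probe sets in place of probe sets gave 1 gene in place of 4 probe sets lower in Rat1-control cells after serum, and 1 in place of 4 higher between the lines at 90 min, in both cases Gadd45a. It gave 0 in place of 1 lower in Rat1-Omomer at 90 min against Rat1-control at 0 min, and 0 in place of 1 higher in Rat1-Omomer cells against their own start. With a threshold of 2-fold, the counts of Rat1-Omomer at 90 min were 1 higher and 2 lower against Rat1-control at 0 min, and 2 higher and 3 lower against their own start; Rat1-Omomer cells at 0 min had 2 higher. The settings that could not change a count also left the log2 folds of the single genes as they were. Of the recomputed log2 folds, these included, 224 moved by no more than the SD within genes, and none of those past 3-fold changed sign. The 1 exception was Gadd45a at 0 min, with 0.24 by the mean of its probe sets against -0.16 by the brightest.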
